A study of Homo sapiens with 24 samples.

Results

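The genes described here are 10 members of the NF-κB pathway and its feedback loop, TNFAIP2, TNFAIP3, LTB, TRAF1, BIRC3, NFKBIA, NFKB1, NFKB2, RELB and ICAM1. They were selected on the log2 difference between TGFβ-treated and untreated cells, because TGFβ moved several of them in opposite directions in the 2 hepatocellular carcinoma cell lines studied. That difference is therefore given below as a description without a test. Each gene was measured by 1 probe of the 58201 probes on the array, which NFKBIA and ICAM1 carry on 10 spots each and the other genes on 1.

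PLC/PRF/5 and SNU-449 are established human hepatocellular carcinoma lines. After overnight serum starvation, cells of each line were left untreated or received 1 ng/mL TGFβ1, 10 µM galunisertib or both, and RNA was taken at 16 h. Galunisertib is a small-molecule inhibitor of the kinase of the type 1 TGFβ receptor. Every group had 3 independent cultures, 1 one-colour array each, which makes 24 arrays in 8 groups. TNFAIP3 and LTB were too dim to test in SNU-449, so 8 members were tested there among 16198 genes and all 10 in PLC/PRF/5 among 16844 genes. Each line is a single model, and the arrays hold whole cultures, in which fewer cells expressing a gene and less RNA per cell cannot be told apart.

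NF-κB is a family of dimeric transcription factors that are held in the cytoplasm by inhibitor proteins until receptors of the TNF, Toll-like and interleukin 1 families trigger the breakdown of the inhibitor. In the canonical branch the released dimers contain RELA and the p50 product of NFKB1, and in the non-canonical branch receptors such as LTBR stabilise the kinase NIK, which leads to processing of the NFKB2 product and release of dimers with RELB. Many NF-κB targets are themselves parts of the pathway, so that the inhibitor IκBα (NFKBIA) and the ubiquitin-editing enzyme A20 (TNFAIP3) close a negative feedback loop. In liver the pathway is known for its roles in hepatocyte survival and inflammation.

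To show what the genes have in common in sequence, the 250 bases upstream of their annotated starts (RefSeq, GRCh38.p14) were searched on both strands for the κB consensus, the 10-base sequence bound by NF-κB dimers. Of the 10 genes, 9 had upstream windows, 15 in all because some genes have several starts, and RELB had none in the table. A match was present in 8 of the 15 windows, belonging to 6 genes, against 9.96% of the 35116 windows of all genes. The genes were picked as NF-κB genes, so this share describes them and was not tested. The windows of the 4 members below with a match that were higher with TGFβ in PLC/PRF/5 are printed 5′ to 3′ on the strand of the gene, with the matches in capitals. TNFAIP2 follows as the member with the steadiest opposite change and no match. LTB lies at chr6:31582426-31582675 on the minus strand, TNFAIP3 at chr6:137867009-137867258 on the plus strand, NFKBIA at chr14:35404750-35404999 on the minus strand, BIRC3 at chr11:102317234-102317483 on the plus strand and TNFAIP2 at chr14:103123211-103123460 on the plus strand.
LTB: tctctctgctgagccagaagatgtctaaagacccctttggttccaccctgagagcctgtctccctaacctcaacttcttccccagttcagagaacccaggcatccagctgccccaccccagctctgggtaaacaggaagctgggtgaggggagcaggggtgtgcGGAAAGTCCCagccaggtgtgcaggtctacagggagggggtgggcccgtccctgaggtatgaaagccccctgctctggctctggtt
TNFAIP3: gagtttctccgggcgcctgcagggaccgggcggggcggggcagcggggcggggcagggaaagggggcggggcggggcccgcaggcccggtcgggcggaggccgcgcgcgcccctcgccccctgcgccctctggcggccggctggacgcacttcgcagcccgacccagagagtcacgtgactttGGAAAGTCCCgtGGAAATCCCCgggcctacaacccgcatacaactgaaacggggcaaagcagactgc
NFKBIA: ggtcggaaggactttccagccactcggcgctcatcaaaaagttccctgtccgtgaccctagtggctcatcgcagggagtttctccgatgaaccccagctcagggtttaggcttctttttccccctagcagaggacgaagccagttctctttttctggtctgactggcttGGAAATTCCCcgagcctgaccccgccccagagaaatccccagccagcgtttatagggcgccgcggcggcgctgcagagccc
BIRC3: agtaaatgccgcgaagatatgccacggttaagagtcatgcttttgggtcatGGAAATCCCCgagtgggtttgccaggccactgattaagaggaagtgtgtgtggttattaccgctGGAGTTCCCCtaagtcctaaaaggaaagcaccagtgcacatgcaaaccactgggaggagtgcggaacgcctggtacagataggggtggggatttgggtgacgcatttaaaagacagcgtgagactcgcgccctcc
TNFAIP2: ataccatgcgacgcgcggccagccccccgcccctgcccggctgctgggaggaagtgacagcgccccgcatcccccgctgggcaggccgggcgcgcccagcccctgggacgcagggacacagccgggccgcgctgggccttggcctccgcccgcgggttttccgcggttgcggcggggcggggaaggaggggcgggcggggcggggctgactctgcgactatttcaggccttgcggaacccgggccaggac

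All matches in these 4 windows lie on the strand opposite to the gene. Read on that strand, LTB and TNFAIP3 share the decamer GGGACTTTCC, whose first base in the window lies 86 bases before the start of LTB and 67 bases before that of TNFAIP3. TNFAIP3 and BIRC3 share GGGGATTTCC, at 55 and 199 bases before their starts. NFKBIA has GGGAATTTCC at 81 bases, the same decamer that NFKB1 carries on its own strand 49 bases before 1 of its 2 starts. NFKB2 has matches before 2 of its 3 starts. No match was found in the windows of TNFAIP2, ICAM1 and TRAF1, which says only that these letters are absent from these windows.

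**Figure D1:**
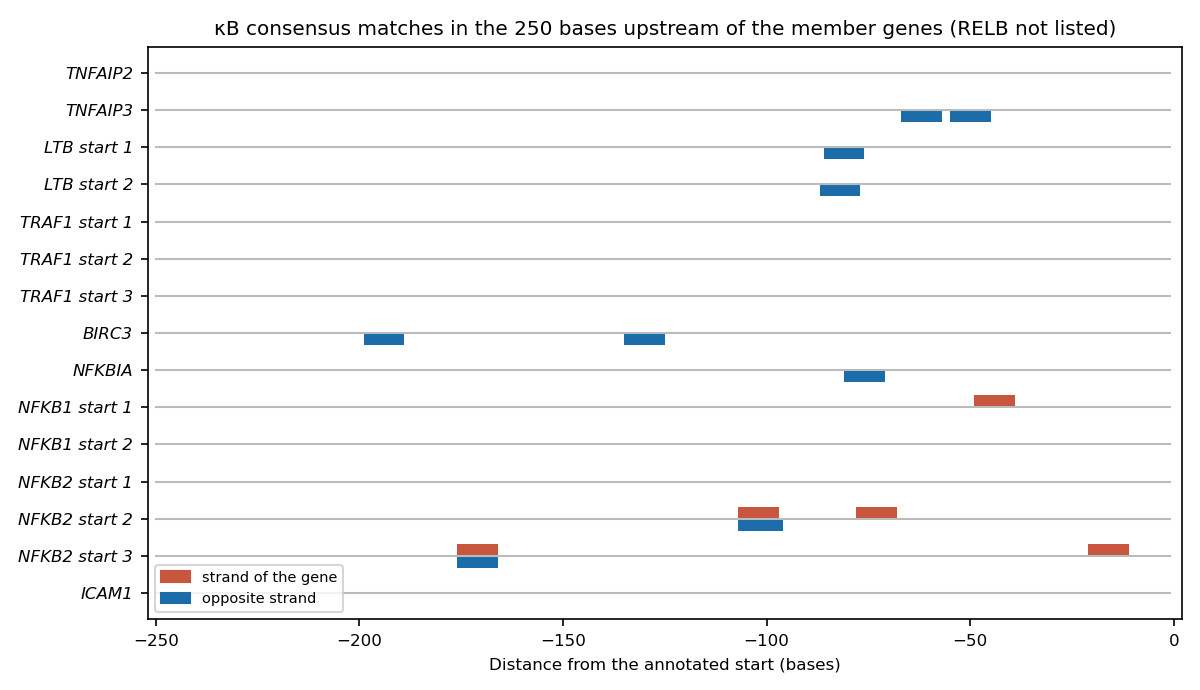
Matches to the κB consensus in the 250 bases upstream of each annotated start of the member genes, with the distance from the start in bases on the horizontal axis and 1 line for each start. Red boxes are matches on the strand of the gene and blue boxes on the opposite strand. Windows with a match belong to TNFAIP3, LTB, BIRC3, NFKBIA, NFKB1 and NFKB2.

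Levels below are log2 values relative to the 75th percentile of the array, so a level of 1 is 2-fold brighter than that percentile. Differences are differences of such levels, and levels of different genes are not compared because each comes from its own probe. The lowest level assigned was the floor of -4.13, which corresponds to 5.70% of the 75th percentile. The 75th percentile of the raw intensity ranged from 145 to 262 over the arrays, with the dimmest array being that of untreated PLC/PRF/5 replicate 1, and 41.6% to 49.6% of the probes were well above background. Summed levels of 7 hepatocyte markers were 442 to 707 times the 75th percentile over the PLC/PRF/5 arrays and 14.8 to 21.3 times over the SNU-449 arrays, and those of 5 mesenchymal markers were 14.9 to 29.0 and 86.5 to 315 times. These sums rest on few genes, and single markers ran against them, as FGB was at 1.78 in untreated PLC/PRF/5 and at 4.07 in untreated SNU-449, and the mesenchymal marker FN1 at 2.55 and -3.69. Replicates with the same number shared a slide, and the position of a group did not change over the 3 slides. Arrays without TGFβ lay in the first row and arrays with TGFβ in the second row, so row and TGFβ cannot be told apart, and neither can column and the remaining grouping.

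Untreated cells of the lines differed at all 8 members tested within both lines, which passed the limma test across both lines at an adjusted p under 0.05. TNFAIP3 and LTB passed too, but entered this fit only through PLC/PRF/5, where they are high, and are not counted. Among the 18056 genes tested 68.6% passed, 34.1% as higher in PLC/PRF/5 and 34.4% as lower. That split of 6159 genes higher and 6219 lower became 3702 and 7402 with scaling to the array median, and 7136 and 5517 with scaling to the 75th percentile of probes above background on all arrays. TNFAIP2, a target induced by TNF, stood at 5.82 ± 0.08 (SD, n = 3, as for all levels below) in untreated SNU-449 and at 1.71 ± 0.09 in PLC/PRF/5, a difference of -4.10 ± 0.10 (SE). NFKBIA and NFKB1 were lower in PLC/PRF/5 as well, by -0.92 ± 0.09 and -0.83 ± 0.12.

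The other members were higher in untreated PLC/PRF/5, with TNFAIP3 and LTB given as a description only. ICAM1, an adhesion molecule for leukocytes, differed by 3.37 ± 0.10, and the non-canonical subunits NFKB2 and RELB by 2.93 ± 0.12 and 2.69 ± 0.09. BIRC3, which encodes the ubiquitin ligase cIAP2, differed by 2.07 ± 0.17. TRAF1, an adaptor of TNF receptors, differed by 0.82 ± 0.19, and this call was lost with scaling to the array median (0.45, adjusted p = 0.102). LTB, the ligand subunit of lymphotoxin β, was at the floor on every untreated SNU-449 array and its level in PLC/PRF/5 was at least 37.5-fold higher. TNFAIP3 was well above background on 2 of the 3 untreated SNU-449 arrays and at the floor on 1. Its mean level was higher in PLC/PRF/5 by 3.46, a value that rests in part on the floor. Adjusted p-values of the limma tests of the counted members ranged from 6.73e-18 for TNFAIP2 to 0.000742 for TRAF1.

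**Figure D2:**
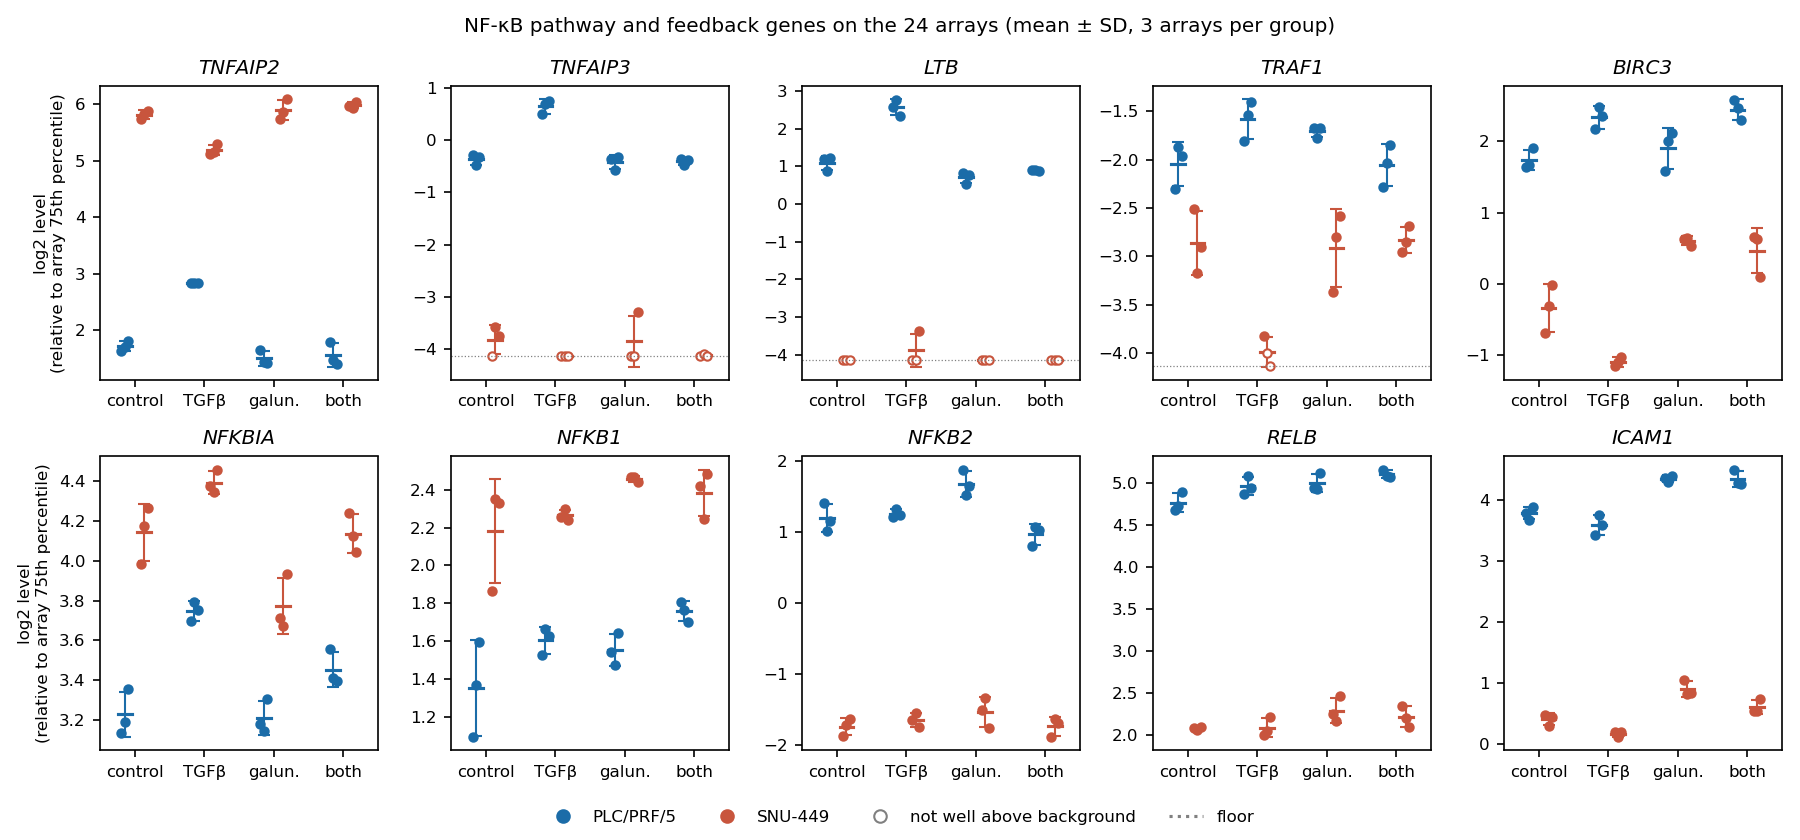
Log2 level of each member on every array, relative to the 75th percentile of the array, in PLC/PRF/5 (blue) and SNU-449 (red) under the 4 treatments (control, TGFβ, galunisertib and both). Points are arrays, bars are the mean ± SD of 3 arrays, open points are not well above background, and the dotted line marks the floor in panels that reach it. TNFAIP2 is the member that lies far higher in SNU-449, and LTB is at the floor on most SNU-449 arrays.

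With TGFβ, the feedback inhibitors and the ligand were higher in PLC/PRF/5. NFKBIA was at 3.14, 3.19 and 3.35 on the 3 untreated arrays (in order of replicate, as below) and at 3.70, 3.79 and 3.75 with TGFβ, a difference of 0.52. TNFAIP3 went from -0.29, -0.48 and -0.32 to 0.49, 0.69 and 0.75, a difference of 1.01. In both genes all TGFβ arrays lay above all untreated arrays. LTB was at 1.19, 0.88 and 1.23 without and at 2.58, 2.77 and 2.35 with TGFβ, so the difference of 1.47 was the largest among the members in this line.

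In SNU-449 NFKBIA alone of these 3 genes gave a measured difference. It was at 3.99, 4.18 and 4.27 without and at 4.38, 4.35 and 4.46 with TGFβ, so that all TGFβ arrays again lay above all untreated arrays, by a mean of 0.25. TNFAIP3 was well above background on 2 untreated arrays (-3.59 and -3.76) and on none with TGFβ. LTB was well above background on 1 TGFβ array, at -3.38, and at the floor on all untreated arrays. The dim signals of TNFAIP3 and LTB in this line give no measured difference.

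TRAF1, BIRC3 and TNFAIP2 moved in opposite directions on every slide. TNFAIP2 was at 1.64, 1.70 and 1.81 in untreated PLC/PRF/5 and at 2.83, 2.84 and 2.84 with TGFβ. In SNU-449 it was at 5.74, 5.83 and 5.89 without and at 5.13, 5.15 and 5.29 with TGFβ. It was thus higher by 1.12 in PLC/PRF/5 and lower by 0.63 in SNU-449 (difference of -0.63), with no overlap between the groups in either line.

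BIRC3 was at 1.64, 1.67 and 1.90 in untreated PLC/PRF/5 and at 2.17, 2.48 and 2.35 with TGFβ. In SNU-449 it was at -0.68, -0.31 and -0.01 without and at -1.16, -1.09 and -1.02 with TGFβ. The differences were 0.60 and -0.75, again without overlap.

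TRAF1, a dim gene, was at -2.30, -1.87 and -1.96 in untreated PLC/PRF/5 and at -1.81, -1.53 and -1.40 with TGFβ. In SNU-449 it was at -2.51, -3.17 and -2.91 without and at -3.82, -4.00 and -4.13 with TGFβ, where only 1 of the 3 arrays was well above background. The differences were 0.46 and -1.12, and the second reaches down to the floor.

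The subunits and ICAM1 moved less. NFKB1 differed with TGFβ by 0.25 in PLC/PRF/5 and 0.08 in SNU-449, NFKB2 by 0.06 and 0.09, and RELB by 0.20 and 0.01, and all of these groups overlapped. ICAM1 differed by -0.19 in PLC/PRF/5 with overlap and by -0.24 in SNU-449, where all TGFβ arrays lay below all untreated arrays. The groups did not overlap for 6 of 10 members tested in PLC/PRF/5 and 5 of 8 tested in SNU-449, where among all genes tested 38.2% and 38.6% did not overlap. Nothing is read from these shares because this contrast chose the genes.

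**Figure D3:**
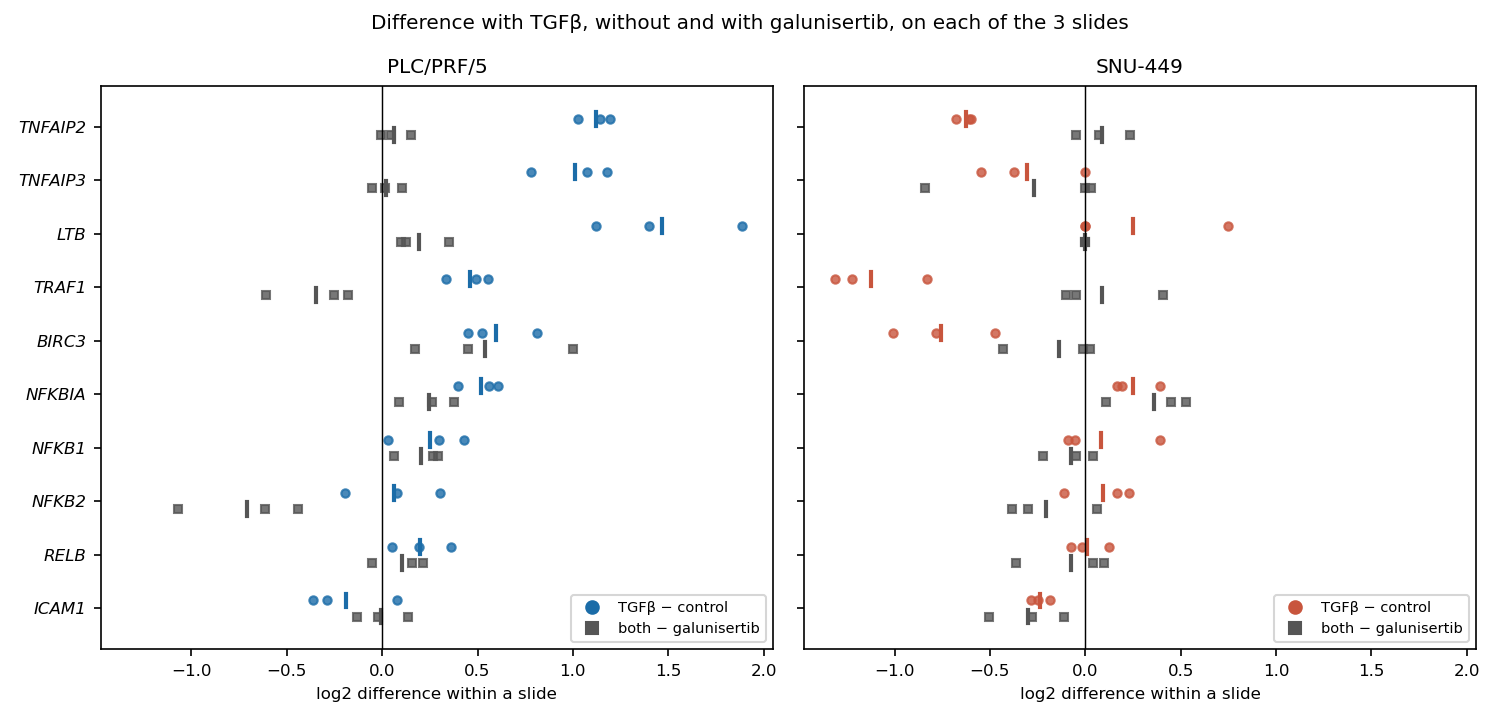
Log2 difference between cells with and without TGFβ on each of the 3 slides, in the absence (coloured circles) and in the presence (grey squares) of galunisertib, for the 10 members in PLC/PRF/5 (left) and SNU-449 (right). Vertical ticks are means over the slides. Circles of TNFAIP2, BIRC3 and TRAF1 lie right of 0 in PLC/PRF/5 and left of 0 in SNU-449, and the squares of TNFAIP2 cluster around 0 in both lines.

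Whether TGFβ moved the members while its receptor kinase was inhibited was read from the cells with both agents against those with galunisertib alone. These arrays are not part of the contrast that chose the genes, although the choice was made with earlier results of these data known. In SNU-449 none of the 8 members tested passed at an adjusted p under 0.05 in the limma fit, where 1.88% of all genes did. At an unadjusted p under 0.05 there were 2 of 8, NFKBIA and ICAM1, where 16.9% of all genes lay, and the methods' t-test also gave 0 after adjustment. NFKBIA was at 3.71, 3.67 and 3.94 with galunisertib and at 4.24, 4.12 and 4.05 with both, a difference of 0.36 ± 0.10 (SE, adjusted p = 0.123, limma). ICAM1 was at 1.05, 0.82 and 0.84 with galunisertib and at 0.54, 0.55 and 0.73 with both, a difference of -0.30 ± 0.09 (adjusted p = 0.152, limma). In these 2 genes the groups did not overlap, as in 20.3% of all genes tested.

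For TNFAIP2, TRAF1 and BIRC3, the tested genes that TGFβ alone had lowered furthest in SNU-449, the interval of this difference included 0. TNFAIP2 was at 5.74, 5.87 and 6.09 with galunisertib and at 5.97, 5.94 and 6.04 with both, and the 95% confidence interval of the difference ran from -0.14 to 0.31. The intervals were -0.39 to 0.56 for TRAF1 and -0.54 to 0.26 for BIRC3. The difference of BIRC3, -0.14, turned to 0.30 with the normexp background correction. Without galunisertib the differences of the 3 genes had been -0.63 for TNFAIP2, -1.12 for TRAF1 and -0.75 for BIRC3. The 3 genes were picked here as furthest in the contrast that chose the members. Differences picked so tend to be smaller in another comparison, and a loss of the response under galunisertib was not tested.

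The same comparison in PLC/PRF/5 gave 2 of 10 members that passed, where 8.31% of all genes did. NFKB2 was at 1.87, 1.51 and 1.64 with galunisertib and at 0.80, 1.07 and 1.03 with both, which was lower by a log2 difference of -0.71 ± 0.12 (adjusted p = 0.0154, limma). All arrays with both agents lay below all arrays with galunisertib alone. BIRC3 was at 1.58, 2.01 and 2.12 with galunisertib and at 2.58, 2.46 and 2.29 with both, higher by 0.54 ± 0.15 (adjusted p = 0.0473, limma). The call of BIRC3 was lost when any 1 of 5 of the 6 arrays was left out, with adjusted p-values up to 0.144, and it was lost with the replicate block (0.0561), the 75th percentile of probes above background on all arrays (0.0533) and the authors' values (0.0519). With scaling to the array median and with the methods' t-test neither gene passed.

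The members that had been highest over control with TGFβ alone had differences of at most 0.19 in PLC/PRF/5 once galunisertib was present, with intervals that included 0. LTB was at 0.82, 0.54 and 0.76 with galunisertib and at 0.92, 0.89 and 0.89 with both (0.19, 95% interval -0.09 to 0.47). TNFAIP2 was at 1.65, 1.43 and 1.42 with galunisertib and at 1.79, 1.48 and 1.41 with both (0.06, interval -0.18 to 0.30). TNFAIP3 was at -0.37, -0.58 and -0.33 with galunisertib and at -0.35, -0.48 and -0.38 with both (0.02, interval -0.20 to 0.24). Without galunisertib the differences of these 3 genes had been over 1 on the same scale. Those were the largest of the contrast that chose the genes, and differences picked for size tend to be smaller in another comparison. Whether galunisertib took away the response was not tested. NFKBIA was at 3.18, 3.14 and 3.30 with galunisertib and at 3.55, 3.41 and 3.39 with both, a difference of 0.24 ± 0.08 that did not pass (adjusted p = 0.0894, limma). TRAF1 went the other way, from -1.67, -1.78 and -1.67 to -2.28, -2.03 and -1.85, a difference of -0.35 ± 0.15 (adjusted p = 0.146, limma). The groups of NFKBIA, TRAF1, LTB, NFKB1, NFKB2 and BIRC3 did not overlap, as in 32.1% of all genes tested.

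As a reference for the inhibitor, SMAD7, a direct target and feedback inhibitor of TGFβ signalling, was higher with TGFβ alone by 0.80 ± 0.11 in PLC/PRF/5 (adjusted p = 0.000906, limma) and by 0.65 ± 0.13 in SNU-449 (adjusted p = 0.0112, limma), and both calls held with the replicate block (0.00305 and 0.0290). In the presence of galunisertib its difference with TGFβ was -0.31 ± 0.11 in PLC/PRF/5 (adjusted p = 0.0922, limma) and 1.38 ± 0.13 in SNU-449 (adjusted p = 0.00131, limma). The TGFβ targets SKIL and PMEPA1 were higher in SNU-449 with both agents than with galunisertib, by 2.08 ± 0.30 and 2.77 ± 0.37 (adjusted p = 0.00956 and 0.00618, limma), while in PLC/PRF/5 the difference of SKIL, 0.20 ± 0.11, did not pass (0.235) and the brighter of 2 PMEPA1 probes was at the floor on all 6 arrays. In SNU-449 a response of these TGFβ targets was thus measured by limma under galunisertib in the same arrays in which no member passed. With the methods' t-test no gene passed in this comparison after adjustment, these targets included. The response started from low levels, as SMAD7 was at a mean of 3.12 untreated, 1.23 with galunisertib and 2.61 with both. SKIL was at -0.68, -3.30 (well above background on 2 of 3 arrays) and -1.22, and PMEPA1 at 6.13, 2.63 and 5.40. With both agents the mean of each stayed below that of untreated cells.

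Galunisertib alone was compared with no treatment to see which members moved without added TGFβ. This comparison uses the same untreated arrays as the contrast that chose the genes, so its p-values are not independent of the choice. In SNU-449, 2 of 8 members passed, where 7.3% of all genes did. BIRC3 was at 0.64, 0.64 and 0.53 with galunisertib, above all untreated arrays, and was higher by 0.94 ± 0.18 (adjusted p = 0.0142, limma). ICAM1, at 1.05, 0.82 and 0.84 against 0.48, 0.30 and 0.44 untreated, was higher by 0.50 ± 0.09 (adjusted p = 0.0135, limma). NFKBIA was at lower levels on all galunisertib arrays than on all untreated arrays, and its difference of -0.37 ± 0.10 did not pass (adjusted p = 0.0598, limma). Among all genes tested the groups of 27.4% did not overlap. Neither BIRC3 nor ICAM1 passed with the methods' t-test, and ICAM1 did not pass with scaling to the array median (adjusted p = 0.290).

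In PLC/PRF/5, 2 of 10 members passed with galunisertib alone, where 5.34% of all genes did. ICAM1 was at 4.36, 4.29 and 4.40 with galunisertib against 3.79, 3.68 and 3.88 untreated, higher by 0.56 ± 0.10 (adjusted p = 0.0125, limma). It did not pass with scaling to the array median (adjusted p = 0.167) or the methods' t-test (0.0630), or without untreated replicate 2 (0.0575). NFKB2 was at 1.40, 1.02 and 1.16 untreated and was higher with galunisertib by 0.48 ± 0.12 (adjusted p = 0.0495, limma). This call was lost without either of 2 galunisertib arrays (replicates 1 and 3, adjusted p = 0.151 and 0.105) or either of 2 untreated arrays (replicates 2 and 3, 0.164 and 0.0976), and under every other setting tried except the stricter filter and the mean of all probes. LTB was lower on all galunisertib arrays than on all untreated arrays, by -0.39 ± 0.13, and did not pass (adjusted p = 0.0983, limma). Among all genes tested in this line the groups of 27% did not overlap.

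**Figure D4:**
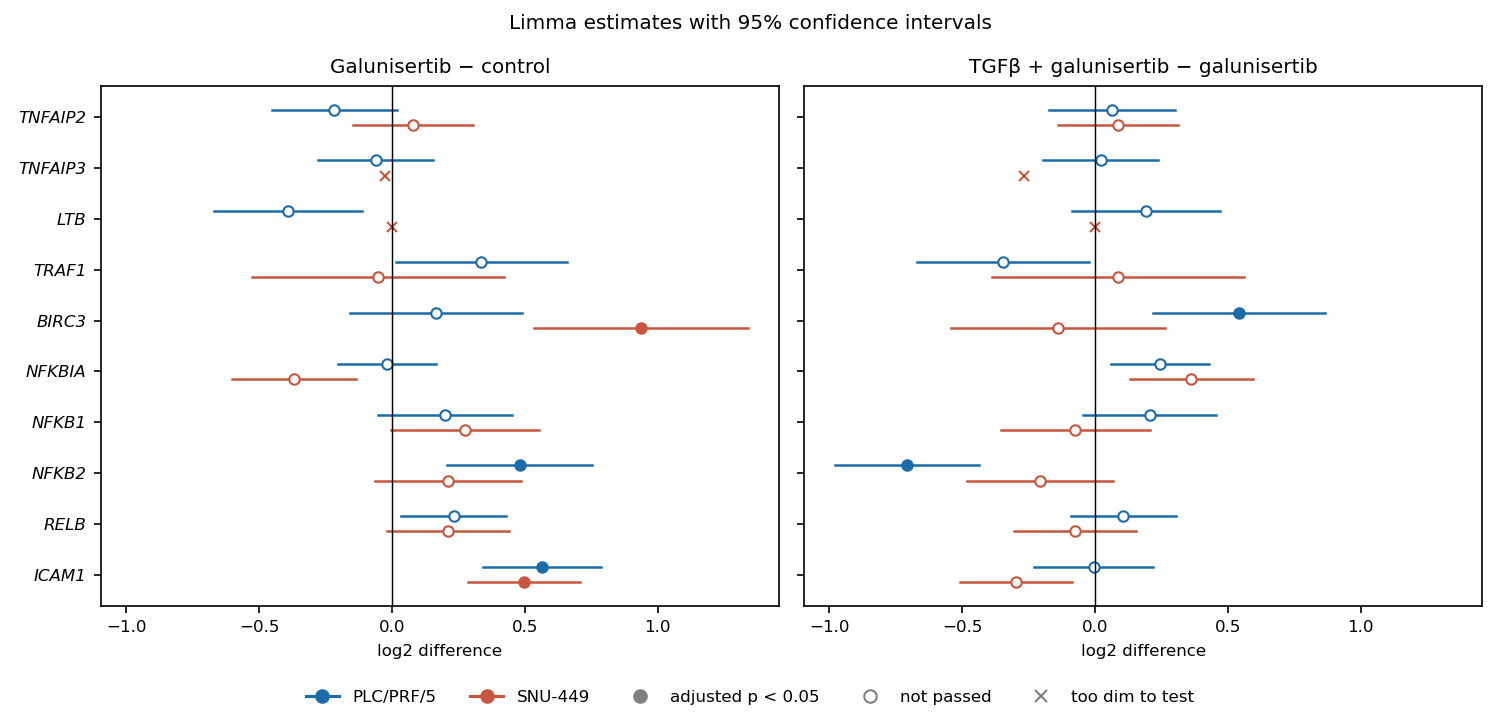
Log2 differences of the 10 members for galunisertib against control (left) and for both agents against galunisertib (right), in PLC/PRF/5 (blue) and SNU-449 (red), with 95% confidence intervals from limma. Filled points passed at an adjusted p under 0.05, open points did not, and crosses were too dim to test. ICAM1 is filled in both lines on the left, and NFKB2 of PLC/PRF/5 lies at 0.48 on the left and at -0.71 on the right.

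Cells with both agents were also set against cells with TGFβ alone. The TGFβ arrays had helped to choose the genes, and a gene that is high or low on them is drawn the opposite way in this comparison, so the values are given as a description of size. In SNU-449, 4 of 8 members passed, all higher with both agents, where 17.2% of all genes passed and 9.82% passed as higher. That split of 1590 genes higher and 1190 lower became 434 and 900 with scaling to the array median. They were BIRC3 (1.55 ± 0.18, from levels of -1.16, -1.09 and -1.02 to 0.66, 0.63 and 0.10), TRAF1 (1.15 ± 0.21), TNFAIP2 (0.79 ± 0.10) and ICAM1 (0.44 ± 0.09). TNFAIP2 and ICAM1 did not pass with scaling to the array median, where their differences were 0.63 and 0.28.

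Of the members in PLC/PRF/5, 6 of 10 passed, where 38.9% of all genes did, 25.5% as higher and 13.4% as lower. That split of 4303 genes higher and 2249 lower turned to 2440 and 3774 with scaling to the 75th percentile of probes above background on all arrays. Of the 6 members, 5 were lower with both agents, namely LTB (-1.67 ± 0.13), TNFAIP2 (-1.28 ± 0.11), TNFAIP3 (-1.05 ± 0.10), TRAF1 (-0.47 ± 0.15) and NFKBIA (-0.30 ± 0.08). ICAM1 was higher by 0.75 ± 0.10, at 4.49, 4.27 and 4.26 with both agents against 3.43, 3.76 and 3.59 with TGFβ. The calls of TRAF1 and NFKBIA were lost without single arrays and with scaling to the array median. BIRC3 differed from the other members that TGFβ had raised, with levels of 2.17, 2.48 and 2.35 with TGFβ and of 2.58, 2.46 and 2.29 with both, a difference of 0.11 ± 0.15 whose 95% interval ran from -0.21 to 0.43.

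The difference between the lines was tested for the 2 comparisons of which neither is the contrast that chose the genes. TNFAIP3 and LTB entered this fit only through PLC/PRF/5 and lay at or near the floor in SNU-449, so they give no such difference. For galunisertib against control, none of the other 8 members passed in the limma fit over both lines, where 5.83% of all genes did, and 2 had an unadjusted p under 0.05, BIRC3 and NFKBIA, where 18.6% of all genes lay. The effect on BIRC3 was larger in SNU-449 by 0.77 ± 0.24 (adjusted p = 0.0668, limma). For ICAM1 the effects of 0.50 and 0.56 differed by -0.07, with a 95% interval from -0.35 to 0.21. For TGFβ in the presence of galunisertib none of these 8 passed either, where 3.77% of all genes did, and 3 had an unadjusted p under 0.05, BIRC3, NFKB2 and ICAM1, where 22.9% of all genes lay. The TGFβ difference of BIRC3 was lower in SNU-449 by a log2 difference of -0.68 ± 0.24 (adjusted p = 0.103, limma), and that of NFKB2 was higher by 0.50 ± 0.18 (adjusted p = 0.102, limma). No other tool was run on these differences.

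To place the members in their pathway, 84 further NF-κB genes were read, made up of 20 receptors and adaptors, 13 kinases and linkers, 17 other subunits and inhibitors and 34 other targets. With both agents against galunisertib alone, 0.92% of all genes tested in SNU-449 passed as higher and 0.963% as lower. Of the 67 further genes tested there, 5 passed as higher and 1 as lower, with a median difference of 0.00 where that of all genes was -0.05. The higher ones included EFNA1, an ephrin ligand (1.25 ± 0.14, adjusted p = 0.00274), IER3, an early response gene (1.03 ± 0.13, 0.00444), and GADD45B, a stress-response gene (0.85 ± 0.12, 0.00707), and the lower one was the chemokine CCL2 (-0.78 ± 0.10, 0.00591; all limma). Of these 4, EFNA1 alone passed with scaling to the array median, and none passed with the methods' t-test (adjusted p up to 0.246). In PLC/PRF/5, 3.47% of all genes passed as higher and 4.84% as lower. Of the 63 further genes tested there, 2 passed as higher and 4 as lower, with a median of 0.06 against 0.02 for all genes. These 6 became 0 to 8 when 1 array was left out, with 0 without galunisertib replicate 1 and 1, 2 and 3 without replicates 2, 1 and 3 of both agents. Among them, the non-canonical kinase MAP3K14, which encodes NIK, was lower by -0.44 ± 0.10 (adjusted p = 0.0300, limma). That was the direction of NFKB2 but not of the non-canonical subunit RELB, whose difference was 0.11 ± 0.09 and did not pass. IL32, a cytokine, was lower by -0.64 ± 0.11 (adjusted p = 0.0156), and IRF1, an interferon-regulatory factor, by -0.44 ± 0.11 (0.0384). TNFSF9, a TNF-family ligand, and IL1R1, the interleukin 1 receptor, were higher by 0.59 ± 0.14 (0.0350) and 0.52 ± 0.13 (0.0394). None of these 5 further genes passed with scaling to the array median or with the methods' t-test. IL1R1, MAP3K14 and IRF1 did not pass with normexp either (adjusted p up to 0.170, limma). Leaving out a single array lost the call for 1 of the 6 arrays with IL32, 3 with MAP3K14, 4 with TNFSF9 and 5 each with IL1R1 and IRF1. The members NFKBIA and ICAM1, well-known NF-κB targets, did not pass in either line in this comparison.

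With galunisertib alone, 5.24% of all genes passed as higher and 2.06% as lower in SNU-449. Of the 67 further genes 11 passed as higher and 5 as lower, and these 16 became 8, 10 and 9 without untreated replicates 1, 2 and 3. CCL2 was higher by 1.16 ± 0.10 (adjusted p = 0.000351), the TNF receptor TNFRSF1A by 1.03 ± 0.12 (0.000935) and the RNA sensor TLR3 by 0.92 ± 0.24 (0.0484), all by limma. The call of TLR3 was lost without any 1 of 4 of the 6 arrays and under 6 of the 9 other settings, among them normexp (0.0913), array median scaling (0.152), the 75th percentile of probes above background on all arrays (0.0632) and the authors' values (0.0512). EFNA1, GADD45B and IER3 were lower by log2 differences of -1.56 ± 0.14, -1.09 ± 0.12 and -1.08 ± 0.13 (adjusted p = 0.000351, 0.000684 and 0.00114, limma). None of these 6 genes passed with the methods' t-test (adjusted p up to 0.292). Of the 63 tested in PLC/PRF/5, 8 passed, all as higher, beside 3.6% of all genes as higher and 1.73% as lower. These 8 became 3 without galunisertib replicate 1 or 3 or untreated replicate 2, 4 and 5 without untreated replicates 1 and 3, and 7 without galunisertib replicate 2. They included SOD2, the mitochondrial superoxide dismutase (0.71 ± 0.08, adjusted p = 0.00173), the chemokine CXCL2 (0.70 ± 0.13, 0.0172) and IER3 (0.69 ± 0.09, 0.00320). None of these 3 passed with scaling to the array median (adjusted p up to 0.112, limma) or with the methods' t-test (adjusted p up to 0.135). The call of CXCL2 was lost without any 1 of 4 of the 6 arrays. The further genes had a median difference of 0.13 in either line, beside 0.09 (SNU-449) and 0.05 (PLC/PRF/5) over all genes.

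With both agents against TGFβ alone, 9 of the 67 passed as higher and 6 as lower in SNU-449, and 15 of 63 as higher and 8 as lower in PLC/PRF/5. Over all genes 9.82% passed as higher and 7.35% as lower in SNU-449, and 25.5% and 13.4% in PLC/PRF/5. No test was made of the further genes as a set, and no response of the pathway is read from these counts. Leading genes in SNU-449 were TLR3 (1.85 ± 0.24), the death ligand TNFSF10 (1.84 ± 0.46) and CXCL2 (1.21 ± 0.19) among the higher, and GADD45B (-1.33 ± 0.12), EFNA1 (-1.07 ± 0.14) and the IκB-like protein BCL3 (-0.99 ± 0.16) among the lower. In PLC/PRF/5 they were CXCL2 (1.07 ± 0.13), IL1R1 (0.99 ± 0.13) and SOD2 (0.98 ± 0.08), and GADD45B (-0.74 ± 0.11), the IκB-like inhibitor NFKBID (-0.66 ± 0.14) and IL32 (-0.61 ± 0.11). GADD45B, NFKBID and IL32 in PLC/PRF/5 did not pass with scaling to the array median (adjusted p of 0.0570 and above, limma). The call of TNFSF10 in SNU-449 was lost without any 1 of 5 of the 6 arrays. Between untreated lines, 31 of the 70 tested over both lines were higher and 25 lower in PLC/PRF/5, beside 34.1% and 34.4% of all genes. Some of the 70, and some of all genes, entered this fit only through the line where they are high. Their passing followed in part from the filter, so these counts are a description. Of the 70, CCL20, TNFSF10 and CD70 were higher in PLC/PRF/5, and CCL2, the lymphotoxin β receptor LTBR and the adaptor MYD88 were lower there. CCL20 was not well above background on any untreated SNU-449 array, and neither were CCL2, LTBR and MYD88 on any untreated PLC/PRF/5 array, so these have no order of size.

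The genes whose levels ran most like those of single members were found over the 24 arrays after each line was centred on its mean. These correlations describe 24 arrays that share slides and treatments and carry no test. ICAM1 ran most like IGFLR1, GLRX and DUSP5 (Pearson r = 0.95 for each), and NFKBIA most like SERPINA3, BCL2L11 and IL17RD (0.93 for each). BIRC3 ran most like ITPRID2 (0.92), CRIM1-DT (0.91) and ARHGAP26 (0.90), and TNFAIP2 most like TYSND1 (0.92), CSPP1 (0.90) and AIFM2 (0.90). Among the members themselves, the highest correlation was that of NFKB1 with RELB (0.68) and the lowest that of ICAM1 with NFKBIA (-0.63). TNFAIP2 correlated at 0.59 with TRAF1 and at 0.51 with BIRC3, and at 0.30 with NFKBIA. The arrays that chose the genes are among the 24. For TRAF1 the most alike were LOC100132356, DPF3 and MPP3, for NFKB1 EXOC8, USP3 and CDC23, for NFKB2 TAOK2, MVB12A and STRN4, and for RELB C10orf88, BTBD16 and HDAC3, with r from 0.83 to 0.91.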

How the data were processed

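RNA of 24 cultures was hybridised to one-colour Agilent arrays, and the authors deposited the scanner output of Agilent Feature Extraction 10.7.3.1 for each array, in which the processed signal of a spot is a linear intensity, already background-subtracted and detrended for each array. The authors also deposited normalized log2 values with each probe centred over the arrays, whose scale was read from the values (slope of 1.00 against the log2 intensities below, with column medians from -0.06 to 0.06); they served as an alternative. Labels gave the group and the replicate number of every array.

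Control and outlier-flagged spots were left out, processed signals were divided by the 75th percentile of the array, and spots of a probe were averaged. Values below 5.70% of that percentile, the median over arrays of the lowest signal well above background, were set to that floor before log2 was taken. Probes were named through RefSeq accessions (31104) or LNCipedia names (10719), and 16378 stayed unnamed and untested. Probes entered a test if all arrays of some group showed them well above background, and the brightest probe stood for a gene. Precision is limited by 3 arrays a group. Linear models of the group means were made with limma 3.58.1 (R 4.3.3), within each line or over both, and p-values were adjusted by Benjamini-Hochberg over all genes tested. On simulated data, 51% to 68% of log2 changes of 0.75 and 80% to 93% of changes of 1.5 were recovered in the comparisons within a line. For the line difference of the galunisertib effect the shares were 35% and 76%, and for that of TGFβ under galunisertib 52% and 80%. These simulations changed 100 genes at each size, with independent noise and no slide effect. In the data other shares of genes passed, so recovery there can differ.

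The alternatives were the normexp background correction, scaling to the array median or to the 75th percentile of probes above background on all arrays, the authors' log2 values, a stricter filter, the mean of all probes, the floor at 50% of its value, the replicate number (slide) as a block, the methods' t-test and leaving out each array. The normexp correction used the median spot signal because the files used here hold no mean signal. Same-numbered samples, which shared a slide, were taken as paired only where all 3 correlations of their deviations were above 0.1. No comparison tested on the members met this limit, with correlations from -0.07 to 0.33. Both agents against TGFβ in SNU-449 fell just short of it, with a lowest correlation of 0.0991. TGFβ against control, tested for SMAD7 alone, met it (0.13 to 0.30).

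The members and gene lists were chosen with earlier results of these data known. All members were named, with the 3 further pathway genes of the largest difference among those that passed per comparison and direction, the 3 genes most alike each member tested in both lines, and TGFβ targets as treatment checks, 1 of which is not reported here. Markers of hepatocytes and mesenchymal cells are given in the text; of 8 leukocyte and 5 endothelial markers, 1 or 2 were above background on all arrays of a line. Promoter sequences came from RefSeq.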

Additional observations from a re-analysis of the deposited data

Results flagged for a closer look

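The response to TGFβ differed in direction between the lines for TNFAIP2, TRAF1 and BIRC3 on each of the 3 slides, with differences (SNU-449 minus PLC/PRF/5, log2) of -1.75, -1.58 and -1.35. These differences were not tested, because the genes were chosen for them.

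Among the further pathway genes, the effect of galunisertib differed between the lines in the limma fit (SNU-449 minus PLC/PRF/5, adjusted p under 0.05) for CCL2 (1.16), CXCL1 (0.99), TLR3 (0.92), IER3 (-1.77), EFNA1 (-1.59) and GADD45B (-1.13). CCL2 and TLR3 were at the floor on the PLC/PRF/5 arrays of these groups, so their values are the SNU-449 effects against a flat floor. The calls of CXCL1 and TLR3 were lost without any 1 of 6 and 9 of the 12 arrays, with normexp (adjusted p = 0.139 and 0.103, limma), array median scaling (0.277 and 0.199) and the authors' values, and GADD45B did not pass with array median scaling (0.0617). The difference with TGFβ in the presence of galunisertib was larger in SNU-449 for ZC3H12A (1.22), EFNA1 (1.16) and IER3 (0.94). It was smaller there for CD83 (-0.48), TAX1BP1 (-0.46) and CCL2 (-0.78). CCL2 was again at the floor on the PLC/PRF/5 arrays, so its value is the SNU-449 difference against a flat floor. None of these 6 passed with array median scaling (adjusted p up to 0.267). The calls of CD83 and TAX1BP1 were also lost without any 1 of 7 and 6 of the 12 arrays, with normexp and with the 75th percentile of probes above background on all arrays, and that of CCL2 with the authors' values.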

How the results depend on the processing

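Of 724 values of single members under settings other than leaving out an array, 671 kept direction and side of the threshold, 26 lost a call, 6 gained one and 21 changed sign, and of 624 values with 1 array left out the numbers were 573, 17, 4 and 30. No member that passed changed sign. Scaling to the array median shifted the median of all genes by -0.34 to 0.17 over the comparisons, and the 75th percentile of probes above background on all arrays by -0.17 to 0.13. The causes of the changes below were not tested.

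For galunisertib against control, the 2 members that passed in SNU-449 became 1 with array median scaling and 0 with the methods' t-test. In PLC/PRF/5 the 2 became 1 with normexp, the authors' values, the floor at 50% and the replicate block, 0 with array median scaling and the t-test, and 0 to 2 when 1 array was left out. For both agents against TGFβ in SNU-449, 4 became 2 with array median scaling. For both agents against galunisertib in PLC/PRF/5, 2 became 1 with the 75th percentile of probes above background on all arrays, the authors' values and the replicate block, 0 with array median scaling and the t-test, and 1 to 2 with 1 array left out. For the line difference of the galunisertib effect, 0 became 1 (BIRC3) with the 75th percentile of probes above background on all arrays and was 0 to 1 with 1 array left out, as was that of the TGFβ effect under galunisertib. The replicate block changed no other call of a member. At the methods' threshold (fold above 2, p under 0.001) their t-test called 1 of 8 members for both agents against TGFβ in SNU-449 and 3 of 10 in PLC/PRF/5, 7 of 10 between the untreated lines, and 0 in the other comparisons. The count between the untreated lines has TNFAIP3 and LTB among its 10, which entered only through PLC/PRF/5.

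Values that changed sign did not pass before the change. With normexp, TRAF1 came to 0.062 for galunisertib in SNU-449, and with both agents against galunisertib TRAF1 came to -0.083 and BIRC3 to 0.30 in SNU-449 and ICAM1 to 0.030 in PLC/PRF/5, while RELB came to -0.044 against TGFβ in SNU-449. With array median scaling, galunisertib against control came to 0.00251 for TRAF1 in SNU-449 and to 0.035 for TNFAIP3 and 0.078 for NFKBIA in PLC/PRF/5. Against TGFβ, NFKB1 came to -0.043 and RELB to -0.034 in SNU-449, and against galunisertib TNFAIP2 came to -0.034 and TRAF1 to -0.035 in SNU-449 and ICAM1 to 0.10 in PLC/PRF/5. The line difference under galunisertib came to -0.21 for TNFAIP2 and -0.11 for NFKBIA. With the 75th percentile of probes above background on all arrays, both agents against TGFβ in PLC/PRF/5 came to -0.061 for BIRC3, -0.020 for NFKB1 and -0.033 for RELB, and TNFAIP3 against galunisertib to -0.037. With the authors' values, ICAM1 against galunisertib in PLC/PRF/5 came to 0.000788 and the line difference under galunisertib of TNFAIP2 to -0.013.

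With 1 array left out, sign changes gave these ranges. For galunisertib against control they were -0.017 to 0.16 (TNFAIP2) and -0.22 to 0.17 (TRAF1) in SNU-449, and -0.12 to 0.015 (TNFAIP3) and -0.066 to 0.045 (NFKBIA) in PLC/PRF/5. For both agents against galunisertib they were -0.14 to 0.25 (TRAF1), -0.24 to 0.042 (BIRC3) and -0.14 to 0.010 (RELB) in SNU-449, and -0.056 to 0.14 (TNFAIP2), -0.056 to 0.070 (TNFAIP3) and -0.081 to 0.033 (ICAM1) in PLC/PRF/5. For the line difference of the galunisertib effect they were -0.25 to 0.17 (TNFAIP3), -0.082 to 0.21 (NFKB1) and -0.11 to 0.042 (RELB), and for that of TGFβ under galunisertib -0.057 to 0.14 (TNFAIP2).

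With array median scaling, counts over all genes fell in every comparison tested, where galunisertib against control went from 1182 to 238 in SNU-449 and from 899 to 90 in PLC/PRF/5, both agents against galunisertib from 305 to 100 and from 1400 to 145, and both against TGFβ from 2780 to 1334 and from 6552 to 3955. The line differences went from 1052 to 197 and from 681 to 59. With the t-test, adjusted, they fell further for galunisertib in SNU-449 (87) and for both agents against galunisertib (0 in either line), and galunisertib in PLC/PRF/5 gave 161. With normexp, both against galunisertib gave 556 in SNU-449 and 2205 in PLC/PRF/5, galunisertib gave 581 in PLC/PRF/5, and the line difference under galunisertib gave 300. The authors' values gave 516 and 327 for the line differences, the stricter filter 628 for the first of them, and the replicate block 197 for both against galunisertib in SNU-449.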
